A study of Mus musculus with 8 samples.

Results

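The loci described here are 2653 probes for long intergenic non-coding RNA (lincRNA). They lie between 0 and 20 kb past the outermost 3′ array probe of a protein-coding gene on the same strand. They were chosen by position alone, from the probe annotation of a mouse expression array. A lincRNA probe was taken where it followed, in the direction of transcription, the outermost 3′ probe of a gene with a curated mRNA record (an NM_ record of RefSeq) within that distance. The true 3′ ends of the genes were not read, so a locus may lie within the gene's own transcript. For 255 loci the annotated lincRNA region starts before the gene probe, and 6 loci lie between the probes of a same-strand mRNA gene. The array holds 16251 lincRNA probes among 55681 probes, and 118 of the lincRNA probes had no position. The 2653 downstream probes came from 807 annotated lincRNA regions and followed 541 of the 19883 mRNA genes with a position. Up to 25 probes followed a single gene, so neighbouring probes are not independent of each other. In the text, a locus is 1 such probe, and its upstream gene is the mRNA gene that it follows.

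The cells were NIH3T3, an immortalised line of mouse embryonic fibroblasts, and the study asked how cordycepin alters the response of starved cells to serum. All cells were grown in 10% newborn bovine serum and then kept for 24 h in 0.5% serum. In the cordycepin group (3 arrays), cells received 20 µM cordycepin in DMSO for 90 min, with serum added for the last 30 min. In the serum group (3 arrays), cells received 0.1% DMSO without cordycepin and the same 30 min of serum, and in the no-serum group (2 arrays) starved cells received 0.1% DMSO and neither cordycepin nor serum. No array held cordycepin without serum, so an effect of cordycepin alone cannot be told apart from its effect on the serum response. The design text calls the experiment an independent triplicate, and the no-serum group holds 2 arrays here. Total RNA was labelled in 1 colour and hybridised to 1 slide of 8 arrays.

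Messenger RNA ends are made by cleavage of the nascent transcript and addition of a poly(A) tail, and RNA polymerase II transcribes on past that point before it stops. RNA from the stretch just downstream of a gene can therefore come from transcription that began at that gene, or from a unit of its own, and a probe in that stretch does not tell which. The drug cordycepin (3′-deoxyadenosine) resembles adenosine but lacks the 3′ hydroxyl group that an RNA chain needs to grow. Serum given to starved fibroblasts switches on immediate early genes such as Fos and Egr1 within minutes.

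The 60-base probes of 8 loci, chosen from those described below, are shown first, 5′ to 3′ in the sense of the upstream gene, with positions in the mm9 build. The first 6 were higher with cordycepin and the last 2 were lower. None of the 8 holds the polyadenylation hexamers AATAAA or ATTAAA, so no letters are capitalised. This does not hold for every locus described below, since the probe 8891 bases past Rps20, not shown, holds AATAAA.
Past Hnrnpk, 8.155 kb downstream (chr13:58485511-58485570, minus strand): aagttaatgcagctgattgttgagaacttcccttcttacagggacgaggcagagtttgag
Past Nucks1, 10.941 kb downstream (chr1:133839635-133839694, plus strand): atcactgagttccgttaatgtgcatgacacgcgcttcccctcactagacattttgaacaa
Past Sertad4, 11.664 kb downstream (chr1:194659604-194659663, minus strand): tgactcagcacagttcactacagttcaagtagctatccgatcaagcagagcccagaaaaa
Past Btg1, 18.39 kb downstream (chr10:96103807-96103866, plus strand): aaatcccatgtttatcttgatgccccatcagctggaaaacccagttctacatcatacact
Past Klf10, 17.328 kb downstream (chr15:38206868-38206927, minus strand): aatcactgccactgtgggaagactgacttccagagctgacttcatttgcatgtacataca
Past Itm2b, 13.975 kb downstream (chr14:73748799-73748858, minus strand): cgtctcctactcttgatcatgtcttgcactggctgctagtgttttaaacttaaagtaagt
Past Mphosph9, 6.934 kb downstream (chr5:124694698-124694757, minus strand): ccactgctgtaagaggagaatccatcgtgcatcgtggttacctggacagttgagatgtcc
Past Plac1, 16.659 kb downstream (chrX:50406515-50406574, minus strand): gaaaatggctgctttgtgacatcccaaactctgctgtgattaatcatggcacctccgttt

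By sequence, the downstream probes were much like the other lincRNA probes. Their median GC content was 45%, as it was for the other 13480 lincRNA probes with a position. The probes later called higher with cordycepin had a median GC content of 43.3%. Either hexamer occurred in the sense orientation in 6.22% of the 2653 downstream probes, in 8.24% of those called higher with cordycepin and in 17.4% of the NM_ probes. The loci lay 5 to 19998 bases past the upstream probe, with a median of 9176 bases; 120 were within 1 kb, 714 within 5 kb and 1452 within 10 kb. Regions probed in both orientations gave 1491 of the loci.

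The arrays behaved alike within groups. The 75th percentile of the signal, to which every array was scaled, ranged from 350 to 802 units, and no spot was saturated. Correlations between arrays of 1 group lay between 0.992 and 0.995, and those between a cordycepin array and any other array lay between 0.966 and 0.976. Of 94 immediate early genes, 91 were tested, that is detected on every array of at least 1 group. Serum raised 46 of them and cordycepin lowered 59 against serum. Fos, the gene of an AP-1 subunit, was higher with serum by 4.86 ± 0.29 on the log2 scale (standard error) and changed by -1.62 ± 0.26 with cordycepin against serum. Tested by the same rule were all 9 fibroblast markers, 2 of 3 endothelial markers, 2 of 4 leukocyte markers and none of 4 epithelial markers. Precision is limited by the number of arrays, and where replicates share a source that the labels do not name, p-values measure only the spread between these arrays.

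Detection is the measure that needs no filter, and over all 2653 loci it was higher with cordycepin. A probe counts as detected on an array where its signal was well above the local background by the scanner software's test. On the 3 cordycepin arrays, 57.7%, 60.0% and 60.2% of the loci were detected. The serum arrays detected 52.2%, 43.4% and 51.0%, and the no-serum arrays 56.4% and 52.2%. The cordycepin arrays were thus the highest and the serum arrays did not overlap them, with serum array 2 the lowest of all 8. The other 13480 lincRNA probes were detected at 37.1% to 40.1% with cordycepin, 33.5% to 39.9% with serum and 39.7% to 42.9% without serum, and here the cordycepin and serum arrays overlapped. In the plot of detection by array, the shift of the cordycepin arrays above the serum arrays is present for the same-strand downstream loci and not for NM_ probes.

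**Figure D1:**
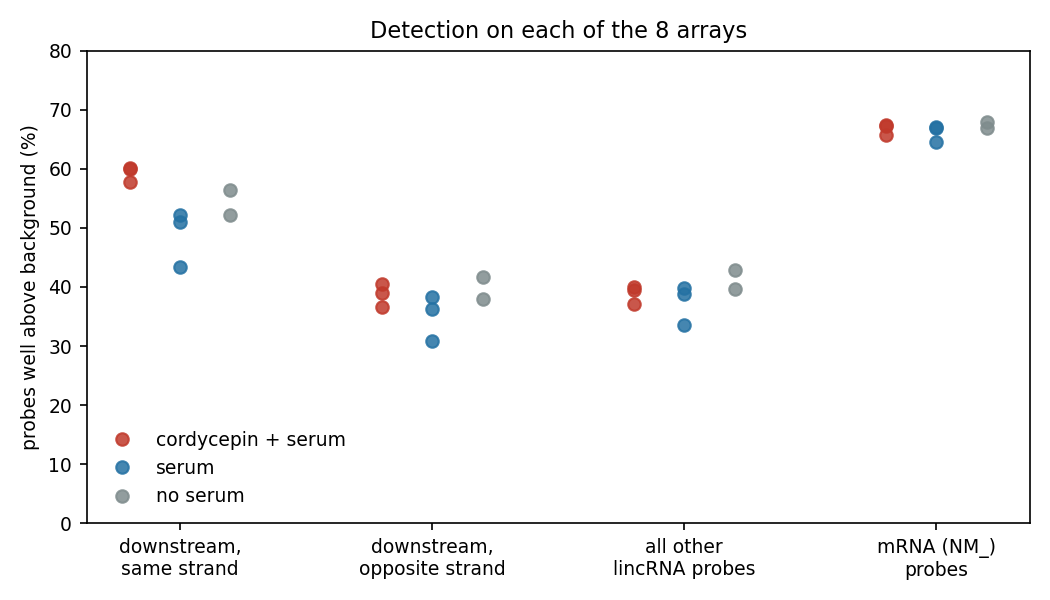
Share of probes well above background (vertical axis, percent) on each of the 8 arrays, for the 2653 same-strand downstream loci, 1956 lincRNA probes downstream of a gene on the opposite strand, all 13480 other lincRNA probes with a position and the NM_ probes; each point is 1 array, coloured by group. The downstream loci sit at 57.7% to 60.2% with cordycepin and at 43.4% to 52.2% with serum.

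Levels are given as log2 of the signal relative to the 75th percentile of the array, so that 0 is the 75th percentile, and a change is a difference of 2 such levels. A probe was tested where it was detected on every array of at least 1 group. This left 1538 loci (58.0% of the 2653), from 608 regions and past 415 genes; the other 1115 loci were not tested. Of the tested loci, 1065 were measured, that is detected on every array, in all 3 groups, whereas 194 were measured in the cordycepin group only and 165 were detected on none of the serum arrays. A locus measured in the cordycepin group only had to be higher there to be tested, and counts over tested loci include such loci. The counts by region, by gene and by gene level below are over tested loci unless stated otherwise. A probe is called higher or lower where limma's adjusted p was below 0.05 and the change was at least 1 on the log2 scale.

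Against serum alone, cordycepin with serum raised 534 of the 1538 tested loci (34.7%) and lowered 20 (1.30%). Over all 30861 tested probes of the array, 7.63% were called higher and 2.87% lower, over all tested lincRNA probes 18% and 3.78%, and over NM_ probes 3.54% and 2.45%. The 534 loci followed 177 genes, and the 20 followed 10. The median change of the tested loci was 0.51, beside 0.10 for all tested probes and 0.18 for all tested lincRNA probes.

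These counts held their order when the filter was changed. Over all 2653 loci, tested or not, the 534 made up 20.1%, against 5.26% of the other 13480 lincRNA probes. Where loci were measured in both groups, 245 of 1082 were higher (22.6%) and 13 were lower, with a median change of 0.27, against 7.78% of 3971 other lincRNA probes with a median of 0.11. With no filter at all, 22.3% of the 2653 loci were called higher and 5.83% of the other lincRNA probes. Where only the serum and no-serum arrays decided which probes were tested, 27.5% of 1344 loci were called higher and 9.67% of the others. Background correction by normexp, an alternative to the subtraction of the scanner software, left 241 of the 1538 loci called higher (15.7%), against 4.13% of the other lincRNA probes.

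The no-serum arrays gave a second comparison with the same cordycepin arrays. Relative to starved cells, cordycepin with serum raised 479 loci (31.1%) and lowered 20, where 6.48% and 2.99% of all tested probes were called. Over all 2653 loci the share higher was 18.1%, and it was 25.4% of the 1237 loci measured in both of these groups. Since these and the previous counts share the cordycepin arrays, neither is an independent check of the other. Over all 2653 loci, whether detected or not, the median level was -4.30, -4.57 and -4.36 on the cordycepin arrays, -5.40, -5.38 and -5.33 on the serum arrays, and -5.22 and -5.15 without serum. All 3 cordycepin arrays lay above the other 5. Over all 13480 other lincRNA probes the cordycepin arrays lay at -5.98 to -6.34, the serum arrays at -6.36 to -6.49 and the no-serum arrays at -6.12 and -6.35. There too the cordycepin arrays lay above the serum arrays, by less, and they overlapped the no-serum arrays. At the 1065 loci measured in all 3 groups the medians were -1.66 to -1.84 with cordycepin and -2.50 to -2.62 on the other 5 arrays. At the 3945 other lincRNA probes measured in all 3 groups they were -2.24 to -2.44 with cordycepin and -2.47 to -2.61 with serum. Without serum they were -2.40 and -2.51, so these probes also stood above serum, by less, and overlapped the no-serum arrays.

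The share of loci called higher differed with distance from the gene, and how it differed depended on which loci were counted. Over all loci, tested or not, 14.2% were called higher within 1 kb, 18.5% from 1 to 5 kb, 24.7% from 5 to 10 kb, 18.5% from 10 to 15 kb and 19.1% from 15 to 20 kb. The highest share thus lay from 5 to 10 kb. Among loci measured in both groups the shares were 14.3%, 16.3%, 29.0%, 25.1% and 22.5%, in the same order. Over tested loci only they were 19.3%, 27.0%, 38.8%, 38.3% and 40.6%, while the share of all loci measured in serum went from 65% within 1 kb to 29.1% from 15 to 20 kb. Past 20 kb, 9.65% of all lincRNA probes were higher from 20 to 50 kb, 5.80% from 50 to 100 kb and 4.07% further away, and among those measured in both groups 11.5%, 7.51% and 6.84%. At the limit of 20 kb, past Gtpbp8 the locus at 19984 bases had a change of 1.24 and the next probe outside the limit, at 20044 bases, had 1.49. The nearest tested loci on the inside were 19998 bases past Leo1, called higher but not detected on every serum array, and 19989 bases past Ifi204, with -0.19; on the outside they were 20013 bases past Igip, with 0.04, and 20049 bases past Ifi204, with -0.09.

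It differed with strand as well. LincRNA probes 0 to 20 kb past the outermost 3′ probe of an mRNA gene on the opposite strand numbered 1956, and 114 were called higher. Probes that are also same-strand loci were left out of these, and the genes need not be those of the same-strand loci. This was 5.83% of all 1956, 15.2% of the 750 tested and 10.0% of the 538 measured in both groups, where same-strand loci had 20.1%, 34.7% and 22.6%. Over all probes the opposite-strand share was 2.50% within 5 kb, 5.42% from 5 to 10 kb and 8.47% from 10 to 20 kb, where it was 17.8%, 24.7% and 18.7% for same-strand loci. For 169 genes, probes of both orientations were tested. Past these genes, 24.8% of all 1076 same-strand loci and 6.99% of all 987 opposite-strand probes were higher. Among those measured in both groups the shares were 24.0% of 554 and 10.8% of 342, with median changes of 0.24 and 0.17. Opposite-strand probes were less often measured in serum, at 28.5% of 1956 beside 41.8% of the 2653 same-strand loci.

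**Figure D2:**
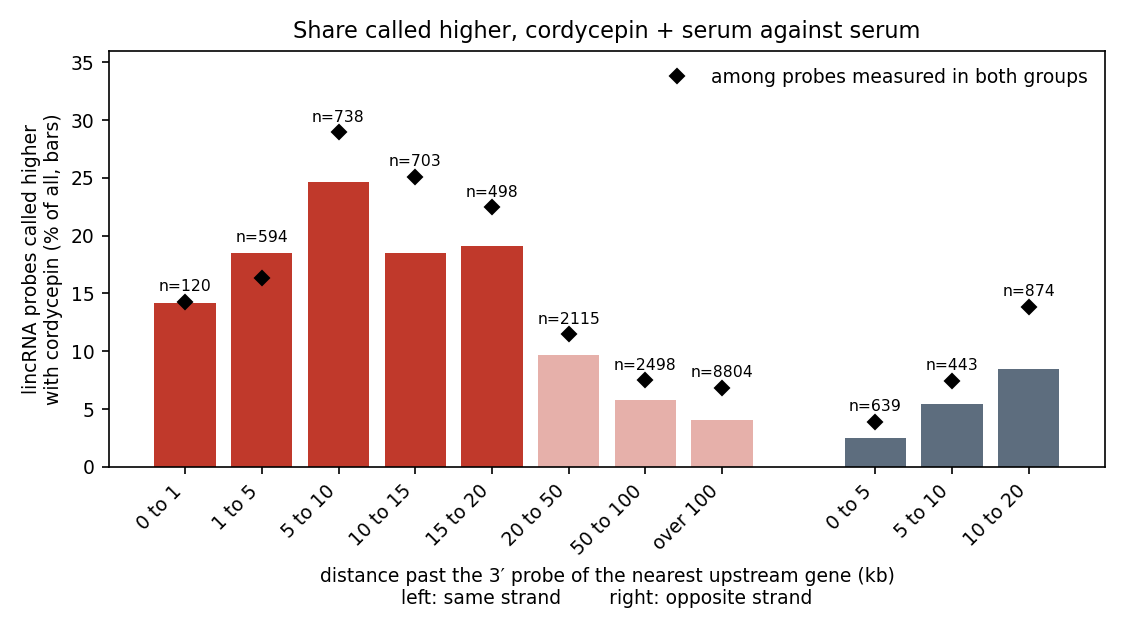
Share of lincRNA probes called higher with cordycepin (vertical axis, percent, from 0) by distance past the 3′ probe of the nearest upstream gene (horizontal axis, kb), for same-strand probes in the window (dark red) and beyond it (pale red) and for opposite-strand probes (grey); bars are shares of all probes, whose number is n, and black diamonds are shares of the probes measured in both groups. On the same strand the bars run from 14.2% within 1 kb through 24.7% at 5 to 10 kb to 4.07% beyond 100 kb, and on the opposite strand from 2.50% to 8.47%.

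Neighbouring loci were seldom called in opposite directions, but often only some of them were called. Of 395 lincRNA regions with at least 2 tested loci, 105 had every locus higher, 200 had none higher, 90 had some, and 0 had loci in both directions. Counted by gene, 236 genes had at least 3 tested loci; all were higher past 49 genes, some past 81 and none past 106. Past 77 genes every tested locus was higher, whatever the number. A single gene, Khdrbs1, had loci called in both directions.

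Few upstream genes moved with their loci. A tested gene probe was available for 1460 loci past 379 genes, and the brightest such probe stood for the gene. Its median change with cordycepin was -0.03. Fitted on each array as locus minus gene, the change of the locus exceeded that of the gene at 613 loci (42.0%) and fell below it at 32 (2.19%), with a median difference of 0.75. Among the 1030 of these loci measured in both groups it exceeded the gene at 317 (30.8%) and fell below it at 22, with a median difference of 0.44. When the same difference was fitted for all lincRNA probes at any distance from a gene, 25.2% were called higher and 5.31% lower. Across the 1460 loci, the correlation between the changes of locus and gene was -0.06, a description over loci that share genes and arrays. It was -0.01 over 485 loci within 5 kb, 0.16 over 450 loci from 5 to 10 kb and -0.24 over 525 loci from 10 to 20 kb.

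Of the 1460 loci with a tested gene probe, 1355 lay past genes that were not called, whether the locus rose or not. Such genes numbered 350, and 469 of their 1355 loci (34.6%) were higher and 17 lower, beside 35.8% higher over all 1460 loci. Past the 22 genes that cordycepin lowered, 41 of 87 loci (47.1%) were higher and 2 were lower, both past Egr3. Past the 7 genes that it raised, 13 of 18 loci were higher. Among loci measured in both groups, 223 of 966 were higher past genes not called (23.1%), 18 of 57 past lowered genes and 3 of 7 past raised genes. Brighter genes had a larger share of loci called higher: from the lowest to the highest quartile of the gene's serum level, 25.8%, 31.4%, 40.9% and 45.3% of tested loci were higher, and 14.4%, 20.2%, 24.2% and 35.6% of those measured in both groups. Loci past genes too dim to be tested were higher in 11 of 78 cases (14.1%).

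**Figure D3:**
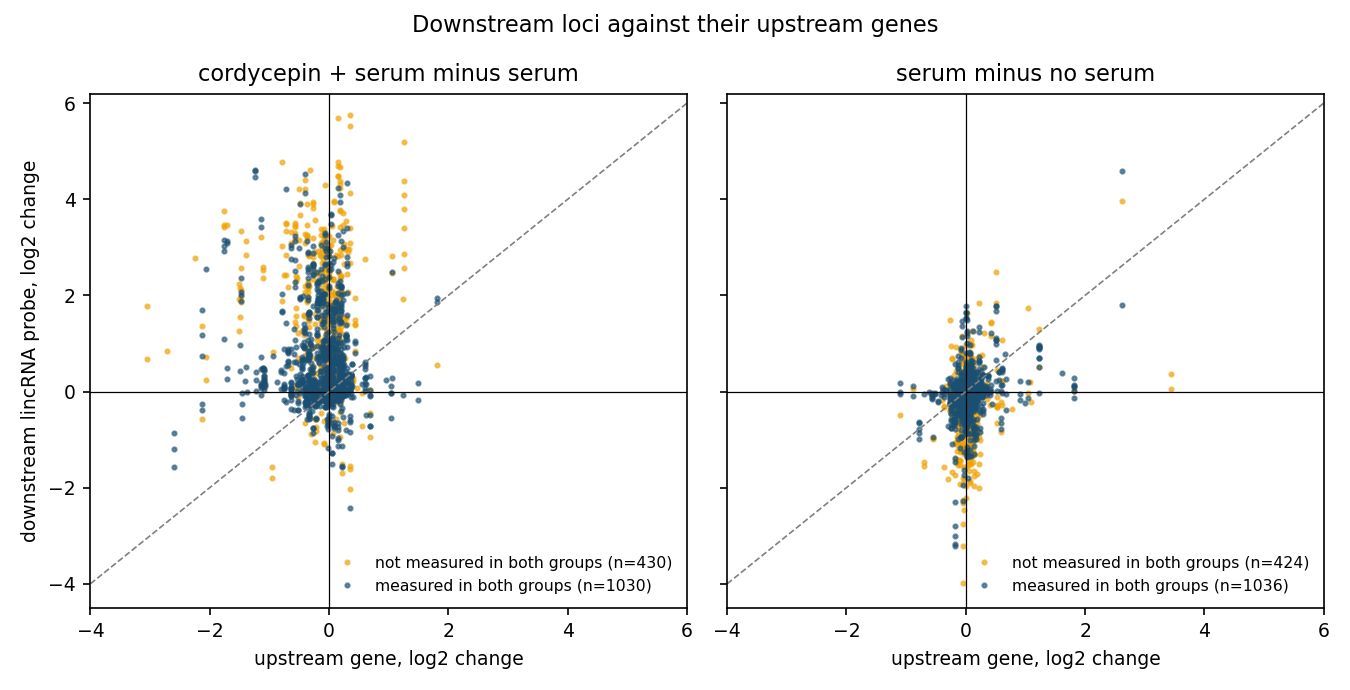
Log2 change of each downstream locus (vertical axis) against that of its upstream gene (horizontal axis) for 1460 loci, with cordycepin plus serum minus serum on the left and serum minus no serum on the right; points are single loci, blue where the locus was measured in both groups and orange where it was not, and the dashed line marks equal change. On the left most loci far above 0 stand over genes near 0. Their height is no exact rise where the locus was not measured in both groups. On the right the 3 loci past Egr3 stand at 4.58, 3.95 and 1.81.

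At immediate early genes with downstream loci, cordycepin mostly lowered the gene, and most of the loci that rose lay past Btg1, whose brightest probe was not called. Of the genes on this list, 7 had downstream loci (Btg1, Btg2, Dusp6, Egr3, Klf10, Plk3 and Spry4), 32 in all, of which 24 were tested. Cordycepin lowered 6 of these 7 genes and left the brightest Btg1 probe uncalled. It raised 14 of the 24 loci, 9 of them past Btg1, and lowered 2, both past Egr3. Past the lowered genes, the loci called higher were 3 of 7 past Plk3, 1 of 2 past Btg2 and the 1 past Klf10. None was called higher past Dusp6, Egr3 or Spry4. Over all tested loci, 34.7% were higher.

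Btg1 encodes an antiproliferative protein that binds the Ccr4-Not deadenylase complex. Its brightest probe, which stands for the gene, read 5.22, 5.22 and 5.32 with cordycepin, 5.66, 5.60 and 5.71 with serum, and 5.46 and 5.61 without serum. The change of -0.41 ± 0.10 was below the size needed for a call. The outermost 3′ probe of Btg1 went the other way and was called higher, by 2.11 ± 0.23. The locus at 18.39 kb read 0.39, 0.17 and 0.41 with cordycepin, -4.14, -4.68 and -3.80 with serum, and -3.13 and -3.85 without serum. The 3 cordycepin arrays were far above the other 5. Its rise was 4.53 ± 0.26 (adjusted p = 2.19e-05, limma), and the locus exceeded the brightest gene probe by 4.94 ± 0.29 and the outermost by 2.42. All 9 tested Btg1 loci, from 11.97 to 18.39 kb, were higher, and the 3 of them measured in both groups rose by 1.22 to 4.53. At 4 of them the serum arrays did not detect the probe, and there the rise was at least 3.39-fold, 8.04-fold, 2.40-fold and 1.93-fold. Against the outermost Btg1 probe, 4 of the 9 differences were no longer called (-0.89, -0.03, 0.09 and 0.99); at 12.708 kb the value was -0.89, beside 1.62 against the brightest probe. Under normexp, 4 of the 9 loci were no longer called, with changes of 0.52 to 0.77.

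Klf10, a zinc finger repressor induced by growth factors, went the opposite way to the RNA behind it. The gene read 1.57, 1.53 and 0.86 with cordycepin and 3.63, 3.83 and 3.22 with serum, a change of -2.24 ± 0.23. Its 1 tested locus, at 17.328 kb, read -4.64, -5.24 and -4.83 with cordycepin. With serum it read -7.99, -7.24 and -7.79 and was below detection on all 3 arrays. The locus was at least 1.52-fold higher with cordycepin, with an adjusted p of 0.000105 by limma, and under normexp its change of 0.54 was not called.

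Plk3, a polo-like kinase induced by serum and stress, changed by -2.12 ± 0.18 with cordycepin. Its locus at 5.132 kb read 0.13, 0.11 and 0.33 with cordycepin, -1.39, -1.81 and -1.31 with serum, and -1.54 and -1.49 without serum. The cordycepin arrays again stood above the rest, by 1.69 ± 0.15 (adjusted p = 0.000141, limma). The loci at 5.993 and 6.069 kb were higher by 1.36 ± 0.32 and 1.17 ± 0.20. Both calls were lost without serum array 2 (1.10 and 0.97) and under normexp (0.45 and 0.58). The call at 5.993 kb was also lost without cordycepin array 1 or 3 (1.27 in both cases) and with no filter on dim probes. That at 6.069 kb was also lost under quantile normalization (0.89). At 3.8, 7.76, 9.242 and 9.302 kb the changes were 0.74, -0.57, -0.27 and -0.38, none of them called. Of the 7 tested Plk3 loci, those called thus lay between 5.132 and 6.069 kb.

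Btg2, a relative of Btg1 induced by p53 and by growth factors, had the largest drop of these genes, a change of -3.05 ± 0.19. The locus at 15.278 kb read -3.85, -4.69 and -4.10 with cordycepin and -5.79, -6.47 and -5.70 with serum, where it was below detection, and was at least 2.35-fold higher (adjusted p = 0.00258, limma; not called under normexp, 0.52). The second, at 15.338 kb, had a change of 0.68 ± 0.22 and was not called. Spry4, an inhibitor of growth factor signalling, changed by -2.71 ± 0.20, a call lost under normexp, and its locus at 6.671 kb by 0.85 ± 0.27, not called. Dusp6, the phosphatase of ERK kinases, changed by -1.37 ± 0.22 while its locus at 0.503 kb stood at -0.02 ± 0.15.

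Egr3, a zinc finger transcription factor, was the only gene of these with loci called lower. The gene read -3.91, -4.10 and -4.60 with cordycepin, -1.85, -1.21 and -1.74 with serum, and -3.91 and -4.51 without serum. The locus at 4.73 kb read -1.53, -1.80 and -1.19 with cordycepin, 0.44, -0.21 and -0.02 with serum, and -4.26 and -4.76 without serum. In both, the serum arrays were the highest; at the locus the cordycepin arrays lay between the other groups, and at the gene they overlapped the no-serum arrays. With cordycepin the locus changed by -1.58 ± 0.23 and the gene by -2.60 ± 0.25, and with serum the locus rose by 4.58 ± 0.26 and the gene by 2.61. The loci at 4.577 and 4.809 kb were higher with serum as well, by 1.81 ± 0.18 at 4.809 kb, whereas the probe at 4.577 kb was not detected on every no-serum array. They changed with cordycepin by -1.19 ± 0.16 and -0.87 ± 0.16, the last not called. The drop at 4.577 kb was not called under normexp (-0.77) or with spike-in centring (-1.26), nor was the serum rise at 4.809 kb with that centring (1.47).

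**Figure D4:**
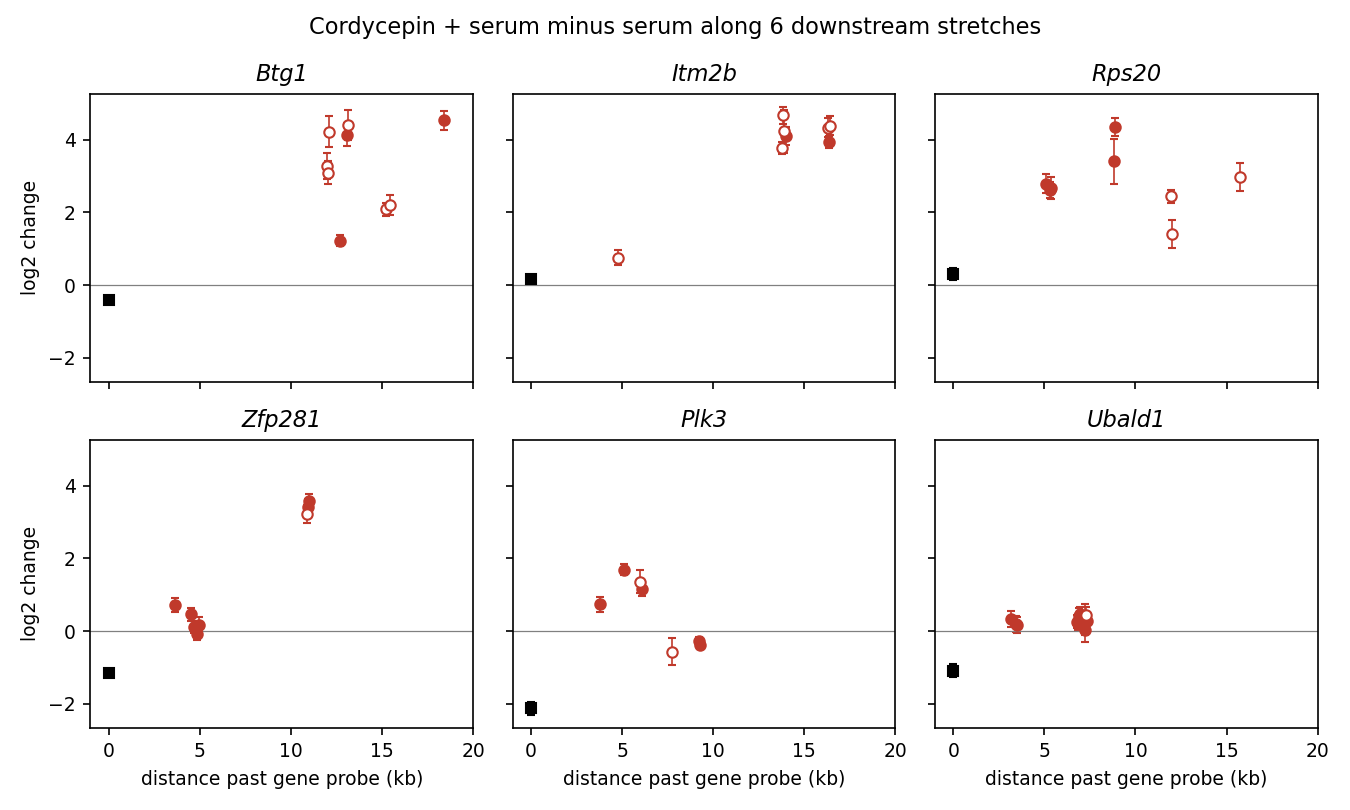
Log2 change with cordycepin (vertical axis, cordycepin plus serum minus serum) of every tested locus past 6 genes. The horizontal axis (kb) is the distance from the gene's outermost 3′ probe. Circles are loci, filled where measured in both groups and open where not, and bars are standard errors. The black square is the gene's brightest tested probe, drawn at 0, which need not be the outermost. For Btg1 the outermost 3′ probe, not drawn, changed by 2.11. Past Btg1 and Rps20 every locus is above 1, past Zfp281 only the 3 loci beyond 10 kb are, past Plk3 only those between 5.132 and 6.069 kb, and past Ubald1 none is.

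Among loci measured in both groups, the largest rises with cordycepin, taking 1 locus a gene, included those past Sertad4, Btg1, Rps20, Nucks1, Itm2b, Senp1 and Hnrnpr. Their rises ran from 3.68 to 4.62. Sertad4 belongs to a family of SERTA-domain transcriptional regulators. Its locus at 11.664 kb read 0.58, 0.21 and -0.12 with cordycepin, -3.87, -4.92 and -4.39 with serum, and -4.70 and -3.87 without serum. The gene went down, from 3.67, 3.78 and 3.26 with serum to 2.29, 2.39 and 2.31 with cordycepin. A rise of 4.62 ± 0.32 at the locus (adjusted p = 5.01e-05, limma) thus stood beside a change of -1.24 ± 0.16 of the gene, and all 3 tested Sertad4 loci were higher.

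For the other genes of this set the brightest gene probe was not called, although the outermost 3′ probe of Btg1 was called higher. Rps20 encodes a protein of the small ribosomal subunit, and its probe changed by 0.30 ± 0.15. The locus at 8.891 kb read 0.81, 1.21 and 0.89 with cordycepin and -2.99, -3.43 and -3.69 with serum, a rise of 4.34 ± 0.25, and all 8 tested loci from 5093 to 15717 bases past Rps20 were higher. Nucks1, a chromatin-bound nuclear protein, changed by 0.16 ± 0.13 and its locus at 10.941 kb by 4.24 ± 0.22, from -2.88, -3.73 and -2.90 with serum to 1.16, 1.02 and 1.05. Neither set of arrays overlapped the other. Senp1, a SUMO protease, changed by -0.48 ± 0.15 and its locus at 7.515 kb by 3.89 ± 0.21. For Hnrnpr, an RNA-binding protein, the values were 0.02 ± 0.11 for the gene and 3.68 ± 0.16 for the locus at 13.329 kb.

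Where a locus was not detected in serum, only a lower bound of its rise can be given, and the 4 largest bounds lay past Hnrnpk, Nucks1, Chek1 and Itm2b. Hnrnpk encodes a poly(C)-binding RNA-binding protein. Its locus at 8.155 kb read -1.01, -0.87 and -0.64 with cordycepin, and -6.02, -6.99 and -6.79 with serum, all 3 below detection. It was at least 25.4-fold higher with cordycepin (adjusted p = 9.77e-06, limma), while the gene changed by 0.34 ± 0.12 and was not called. All 6 tested Hnrnpk loci were higher. The Nucks1 locus at 12.695 kb was at least 18.4-fold higher and the Itm2b locus at 13.813 kb at least 12.3-fold. Chek1, the checkpoint kinase 1 gene, differed from these in that the gene was called higher as well, by 1.25 ± 0.28. Its locus at 5.376 kb was at least 12.9-fold higher, and all 7 tested loci between 2178 and 5376 bases past Chek1 were called. The call of the gene was lost without cordycepin array 1 (1.19), cordycepin array 3 (1.18) or serum array 1 (0.93) and under normexp (0.53).

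Ranked by the difference between locus and gene, the first among loci measured in both groups included those past Sertad4 (5.86 ± 0.34), Btg1 (4.94 ± 0.29, or 2.42 against its outermost 3′ probe), Fem1c (4.91 ± 0.24), Plekho2 (4.86 ± 0.44) and Zfp281 (4.73 ± 0.23). Fem1c, a substrate receptor of a ubiquitin ligase, was itself lowered, with a change of -1.76 ± 0.10, and all 7 of its tested loci were higher, by 1.09 to 3.14 at the 4 measured in both groups. Plekho2 changed by -1.72 ± 0.16, and its locus at 18.267 kb rose by 3.14 ± 0.33. Zfp281, a zinc finger transcription factor, changed by -1.14 ± 0.10. Its 3 loci from 10857 to 10977 bases were higher, by 3.42 and 3.59 at the 2 measured in both groups, whereas its 7 loci from 3625 to 4934 bases changed by -0.07 to 0.72 and were not called. Of the other genes that cordycepin lowered, Cnksr3 (9 of 9 loci), Ahdc1 (3 of 3) and Zfp800 (3 of 3) had every tested locus higher, and Scaf8, Ubald1, Zfp644, Zfp830, Zfp955b and Zswim4 had none; these names were taken after their values were seen.

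Loci lowered by cordycepin were few: 20 past 10 genes, of which 13 loci were measured in both groups. The 8 largest drops measured in both groups lay past Plac1, Egr3, Mphosph9, Hist1h2ah (now H2ac12), Khdrbs1, Nhp2l1 (now Snu13), Usp27x and Lgi1. Plac1 is a gene known from the placenta. Its locus at 16.659 kb read -4.67, -4.66 and -3.46 with cordycepin, -2.03, -2.64 and -0.87 with serum, and 1.71 and 1.03 without serum. The 3 groups did not overlap, and the gene probe stayed between -3.27 and -2.51 on all 8 arrays. Locus changes were -2.42 ± 0.50 with cordycepin and -3.22 ± 0.55 with serum. Neighbouring loci differed along this stretch: those at 16278, 16338 and 16408 bases were also called lower with cordycepin but were not detected on every cordycepin array, the locus at 16207 bases had -0.63 and was not called, and the 3 loci between 14936 and 15204 bases had changes of 0.04 to 0.08.

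Mphosph9, an M-phase phosphoprotein, had 6 tested loci between 6508 and 6934 bases, of which 5 were lower. At 6.934 kb the levels were -2.91, -3.08 and -2.73 with cordycepin, -1.57, -0.92 and -1.52 with serum, and -2.27 and -2.72 without serum. Serum arrays were the highest, and the cordycepin arrays lay next to the lower of the no-serum arrays. The locus changed by -1.57 ± 0.21 (-0.96 and not called under normexp) and the gene by 0.22 ± 0.14, not called. Khdrbs1 encodes the RNA-binding protein Sam68. Past it, loci at 10965 and 11103 bases changed by -1.28 and -1.28 and loci at 12226, 12406 and 12466 bases by 1.11, 1.06 and 1.03. Both Khdrbs1 directions were measured on every array, with a gene change of 0.04 ± 0.16.

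Of the remaining drops, Nhp2l1, a spliceosomal protein, had a locus at 3.808 kb with a change of -1.18 ± 0.13, and Usp27x, a deubiquitinase, had 1 at 1.838 kb with -1.14 ± 0.13. Neither call was kept with centring on spike-in probes (-1.25 and -1.21), and the Usp27x locus was also not called under normexp (-0.54). The locus 12.75 kb past the histone gene Hist1h2ah changed by -1.52 ± 0.39, a call lost without cordycepin array 2 or 3 or serum array 2 or 3 (-1.21 to -1.63). Lgi1, whose own probe was too dim to be tested, had a locus at 15.124 kb with -1.08 ± 0.28, a call lost without any of the cordycepin arrays and without serum array 1 or 3 (-0.76 to -1.15), under normexp (-0.22) and with spike-in centring (-1.15). The 6 largest differences in which the locus fell below the gene were those past Plac1 (-2.76), Mphosph9 (-1.79), E130012A19Rik (now Epop, -1.66), Hist1h2ah (-1.56), Itgb7 (-1.41) and Khdrbs1 (-1.32). Past E130012A19Rik the locus change was -0.17 and the gene change 1.49, so the difference lay mostly in the gene, whose call was lost under normexp.

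**Figure D5:**
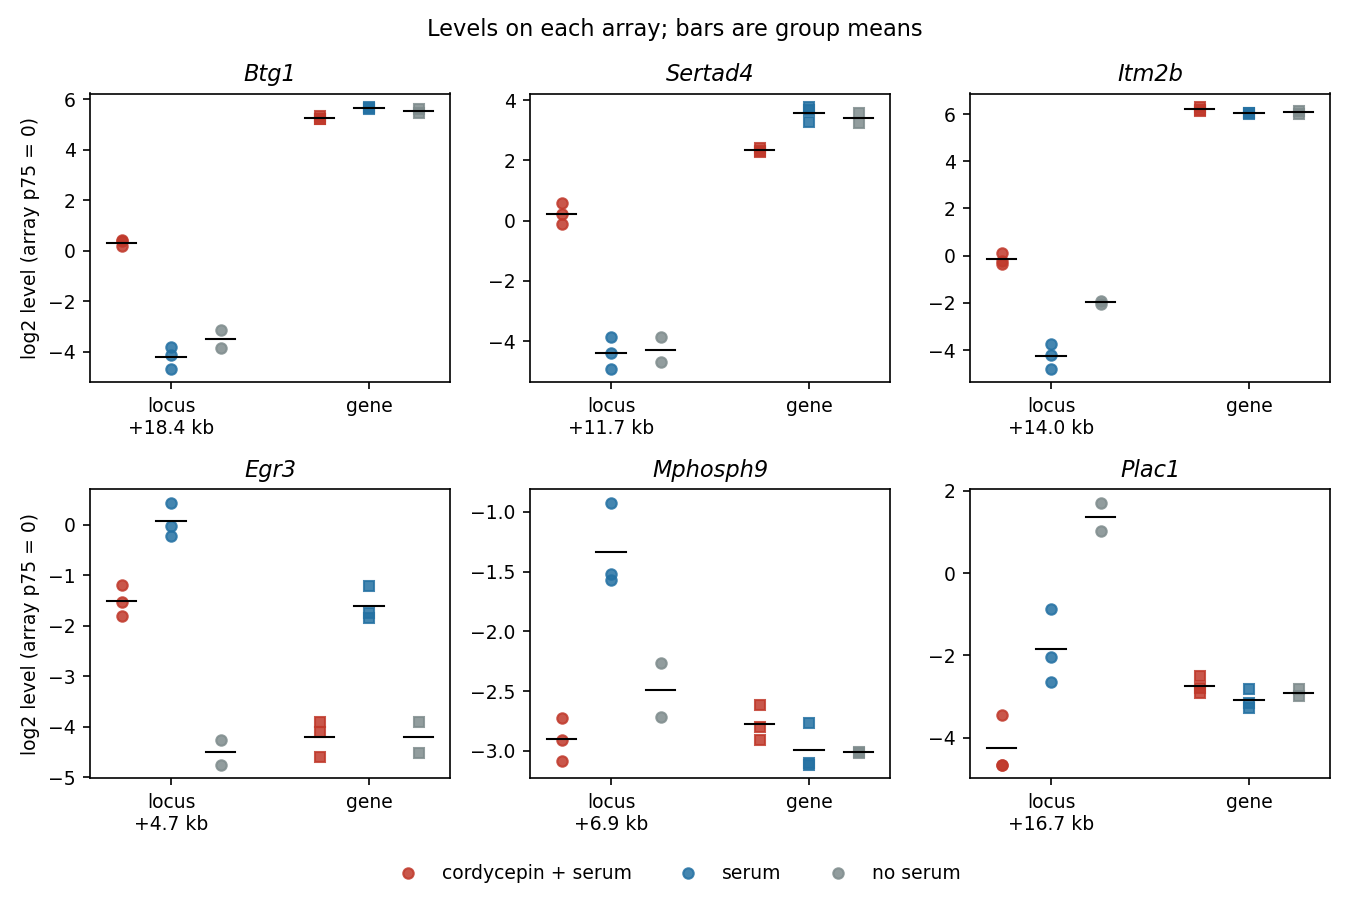
Log2 level relative to the 75th percentile of the array (vertical axis) on each of the 8 arrays for 6 loci (circles) and their upstream genes (squares), coloured by group, with bars at the group means; locus and gene are different probes, so heights compare groups and not locus with gene. The Btg1, Sertad4 and Itm2b loci are highest with cordycepin, the Egr3 and Mphosph9 loci with serum, and the Plac1 locus without serum.

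Serum by itself moved few loci. Against no serum, 17 of the 1538 loci were higher (1.11%) and 42 lower (2.73%), where 0.849% and 0.878% of all tested probes were called and 1.07% and 2.45% of all tested lincRNA probes. The 17 followed 7 genes and the 42 followed 20, with a median change of all tested loci of -0.07 beside -0.02 for all tested probes. This split moved with the processing: it was 10 higher and 7 lower under normexp, and 3 higher and 24 lower when arrays were centred on spike-in probes, a centring that shifted the median of all tested probes to -0.36. The serum comparison uses the same serum arrays as the cordycepin comparison, so the 2 are given side by side and no overlap is read from them. Without no-serum array 1, 11 loci were higher and 13 lower, and without no-serum array 2, 5 were higher and 14 lower.

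The changes of locus and gene were more correlated in this comparison, partly through Egr3. The difference between them was called higher at 12 loci (0.82%) and lower at 67 (4.59%) of the 1460, near the 1.12% and 3.89% of such differences at any distance. The correlation of locus and gene change was 0.28 over the 1460 loci and 0.52 within 5 kb. Without the 3 Egr3 loci these values were 0.20 and 0.34. Serum raised 7 upstream genes with 28 loci. Of those loci 4 (14.3%) were called higher, 3 of them past Egr3, beside 1.11% of all tested loci. Klf10, with a serum change of 1.08, was not called, and Btg2 rose with serum by 3.43 while its loci changed by 0.05 and 0.36.

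Rises with serum that were measured in both groups lay past 5 genes: Egr3, Slc7a5, Ubald1, Mrpl39 and Fbrs. Slc7a5 encodes the light chain of an amino acid transporter. Its locus at 7.28 kb read -0.21, -1.32 and -0.62 with serum and -2.07 and -2.92 without, a rise of 1.78 ± 0.35, while the gene changed by 0.01. Ubald1 had 11 tested loci, all with positive serum changes, of which 5 were called. The largest that was measured in both groups, 1.77 ± 0.22 at 6.85 kb, read -1.95, -1.71 and -1.75 with serum and -3.55 and -3.60 without, while the gene changed by 0.51 and was not called. With cordycepin these 11 loci changed by 0.03 to 0.46, none of them called, and the gene by -1.09 ± 0.18, a call of the gene that was lost without cordycepin array 1 (-0.99) or serum array 2 (-0.97). The loci past Mrpl39 and Fbrs rose with serum by 1.48 ± 0.28 and 1.33 ± 0.18, and with cordycepin they changed by -0.84, not called, and by 3.14 ± 0.16.

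Drops with serum were led by Plac1 and Itm2b, followed by Tmem181a, Spin1, Bnip3l, Naa16, Hnrnpr and Rab2b. Itm2b encodes a membrane protein of the secretory pathway. At 13.975 kb past it the levels were 0.09, -0.34 and -0.22 with cordycepin, -3.75, -4.80 and -4.20 with serum, and -1.94 and -2.03 without serum. The serum arrays were the lowest, the cordycepin arrays the highest and no groups overlapped. The serum change was -2.27 ± 0.28 and the cordycepin change 4.10 ± 0.25, while the gene probe stayed between 6.01 and 6.31 on all arrays. Of 8 tested Itm2b loci, the 7 from 13753 to 16411 bases were all lower with serum and higher with cordycepin, and the locus at 4784 bases had changes of -0.55 and 0.76, neither called. Where a group was below detection, the largest bounds of a serum change were at least 5.31-fold lower 13.873 kb past Itm2b, 2.63-fold lower past Fbxl15, 2.22-fold lower past Hoxb5 and 2.08-fold higher 7.304 kb past Ubald1.

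The other 6 drops measured in both groups were of -1.34 to -1.80. Bnip3l, a mitophagy receptor, had a locus at 8.401 kb that read -3.85, -4.35 and -3.89 with serum, -2.29 and -2.51 without serum, and -0.14, -0.83 and -1.08 with cordycepin. Its changes were -1.64 ± 0.28 with serum and 3.35 ± 0.25 with cordycepin. The locus past Spin1, a reader of methylated histone H3, changed by -1.74 ± 0.13 with serum and 3.13 ± 0.12 with cordycepin. The corresponding pairs were -1.46 and 3.04 past Naa16, -1.36 and 2.55 past Hnrnpr at 12.759 kb, -1.80 and 1.07 past Tmem181a (the rise not called without cordycepin array 2, at 0.79, or serum array 2, at 0.96, or under normexp, at 0.57), and -1.34 and 0.52, not called, past Rab2b. None of these 6 upstream genes was called in either comparison, with gene changes between -0.28 and 0.24.

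With 2 no-serum arrays, the calls of the serum comparison rested on few arrays. Without each array in turn, the calls at the 3 Egr3 loci and past Spin1, Rab2b and Hoxb5 were kept. The last 3 were however not called under normexp (-0.58 past Spin1, -0.66 past Rab2b and -0.24 past Hoxb5) or with centring on spike-in probes (-2.08, -1.68 and -1.81). Under normexp the serum calls past Fbrs (0.53), Ubald1 at 7.304 kb (0.44), Bnip3l (-0.80), Tmem181a (-0.69), Naa16 (-0.43), Hnrnpr at 12.759 kb (-0.70), Fbxl15 (-0.34) and Itm2b at 13.873 kb (-0.93) were not made either. Spike-in centring also lost those past Slc7a5, Mrpl39, Fbrs, Bnip3l, Naa16, Hnrnpr and both Ubald1 loci. The rises at the 2 Ubald1 loci and past Slc7a5, Mrpl39 and Fbrs were not called without at least 1 of the no-serum arrays, where they were 1.12 to 2.21, nor were the drops past Plac1, Itm2b (at 13.975 and 13.873 kb), Tmem181a, Bnip3l, Naa16, Fbxl15 and Hnrnpr at 12.759 kb, where they were -1.10 to -3.56. Direction was the same in each case.

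Most genes of mRNA 3′ end formation were not called with cordycepin. All 39 genes of a list of cleavage, polyadenylation and Integrator factors were tested, with a median change with cordycepin of 0.03, beside 0.10 for all tested probes. Of these genes 1 was called higher and 2 lower, where 7.63% and 2.87% of all tested probes were called. Cordycepin raised Ints6, an Integrator subunit, by 1.30 and lowered 2 genes, Papolg, a poly(A) polymerase, with -2.30, and Scaf8, a protein that binds the polymerase's C-terminal domain, with -1.10. Scaf8 has downstream loci of its own, and its 3 tested loci, from 9176 to 9309 bases, changed by 0.46 to 0.49 and were not called.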

How the data were processed

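RNA of 8 NIH3T3 cultures (3 with cordycepin and serum, 3 with serum, 2 without serum) was hybridised to Agilent 60K mouse arrays in 1 colour, and the deposited intensity of each spot was the processed signal that Agilent Feature Extraction 10.7.3.1 gave the authors after background subtraction, per the file headers. Outlier spots (1081 over 8 arrays) and control spots were left out. Signals were taken as log2 after division by each array's 75th percentile, and spots of 1 probe were averaged. Probe positions are those of the files (mm9), and strand follows the order of the 2 coordinates. Gene symbols came from the files; the accessions of 375 of 379 genes matched a RefSeq table. limma 3.58.1 (R 4.3.3) fitted 1 mean per group over 30861 probes, and a second fit took locus minus gene over 5522 pairs at any distance. All p-values were adjusted by Benjamini-Hochberg over all features of a fit.

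A bound sets the mean of the bright group against, on each array of the dim group, the higher of the lowest level well above background and the probe's own level. Named loci were: all tested loci past immediate early genes; the 8 largest rises and drops in each comparison among called loci measured in both groups with no overlap, 1 a gene; the 4 largest bounds in each comparison; and the 6 largest differences each way with cordycepin. A locus that the rule names is not reported here. The loci, gene lists and rules were chosen with earlier results of these data known. On simulated data with 200 probes changed by 2 (log2) in the cordycepin comparison, the probe fit over 30857 features recovered 159 with 1 false call; the pair fit over 5516 recovered 161 of 187 with 1 false call. Alternatives were another background correction, normalization, centring, filter, block, window and gene probe, and leaving out each array. Figures used matplotlib.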

Additional observations from a re-analysis of the deposited data

How the results depend on the processing

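Of the 14 summary results, those below moved under an alternative; in each case the cause was not tested beyond what the alternative itself changes. With normexp, loci called with cordycepin were 241 higher and 6 lower against serum and 260 higher and 8 lower against no serum, those called with serum were 10 higher and 7 lower, locus minus gene was called higher at 360 and lower at 7 with cordycepin and lower at 29 with serum, the medians were 0.34 and 0.071, and the correlations with the gene -0.11 and 0.24. Quantile normalization gave 33 lower with cordycepin and a median of 0.35. It lost the cordycepin calls of the gene Chek1 (0.96) and of loci past Tmem181a (0.78) and Plk3 (0.89 at 6.069 kb). With no filter on dim probes, the cordycepin calls of loci past Hist1h2ah, Lgi1, Tmem181a and Plk3 (at 5.993 kb) were lost. Centring on spike-in probes gave 12 lower with cordycepin, 3 higher and 24 lower with serum, 177 higher and 11 lower for cordycepin against no serum, and medians of 0.44 and -0.41. With that centring the cordycepin calls of the genes Sertad4 (-1.31), Zfp281 (-1.21), Ubald1 (-1.16), Dusp6 (-1.44), Chek1 (1.18) and E130012A19Rik (1.41) and of loci past Khdrbs1 (-1.35 at 10965 bases), Plk3 (1.29 and 1.10), Btg1 (1.15 at 12.708 kb), Tmem181a (1.00) and Hoxb5 (1.28) were lost. With no filter, 5 loci were higher and 11 lower with serum, the cordycepin median was 0.36, the correlations were -0.10 and 0.17, and locus minus gene was called with serum at 0 higher (12 under the main filter, limma) and 10 lower. Asking for detection on all 8 arrays left fewer loci, with 240 higher and 11 lower with cordycepin, 21 lower with serum, 234 higher and 11 lower for cordycepin against no serum, differences of 309 higher and 16 lower with cordycepin and 33 lower with serum, a median of 0.26, and correlations of -0.085 and 0.33. A filter without the cordycepin arrays, chosen after seeing the data, gave a median of 0.35 and a correlation of -0.083. The outermost 3′ probe as the gene gave a correlation of -0.0077, and turned the difference of 2 Btg1 loci to -0.89 and -0.030. By adjusted p alone, 44 loci were lower with cordycepin, 32 lower against no serum and 50 differences lower. At the methods' limits on unadjusted p, serum called 44 higher and 108 lower, and differences of 32 higher and 134 lower.

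Narrower windows hold fewer loci. Within 5 kb, cordycepin called 127 higher and 6 lower against serum and 120 and 7 against no serum, serum 3 and 6, differences 165 and 10 with cordycepin and 2 and 14 with serum, the cordycepin median was 0.33 and the correlations -0.0074 and 0.52. Within 10 kb these were 309 and 11, 288 and 8, 10 and 19, and differences of 375 and 16 with cordycepin and 35 lower with serum, with correlations of 0.086 and 0.38.

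Leaving out each array in turn gave 500 to 536 loci higher and 14 to 21 lower with cordycepin, 378 to 500 and 16 to 21 against no serum, and 5 to 25 and 13 to 48 with serum. Differences were called at 571 to 624 higher and 30 to 33 lower with cordycepin and at 0 to 18 and 17 to 58 with serum. Medians ran from 0.46 to 0.57 and from -0.09 to -0.06, and correlations from -0.07 to -0.05 and from 0.24 to 0.28. Where a no-serum array was left out, the lone array was assumed to vary like the other groups.

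Same-numbered cordycepin and serum arrays did not deviate together (r = -0.00059, -0.17 and 0.14), so the numbers were not taken as pairs. With the replicate number as a block, 35.0% of loci were higher and 1.17% lower with cordycepin. With the slide row as a block, 522 were higher and 14 lower. Signal over background limits the dim loci, and folds of loci below detection in 1 group are bounds.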
